A study of Mus musculus with 3 samples.

Results

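The sodium pump genes of mouse cells titled pro-B were described by RNA sequencing in the presence and absence of the B-lineage transcription factor Pax5. Pro-B cells are the bone marrow precursors that rearrange the immunoglobulin heavy chain. The members described were the beta subunit genes of the Na,K-ATPase (Atp1b1 to Atp1b3) and Fxyd5, found by Entrez number, and all 4 had a row among the 27179 genes of the count table. They were chosen by their counts in these same libraries, in which the make-up of the beta subunit RNA was seen to differ between the genotypes. Their differences between the genotypes are therefore given as a description, with no test. There were 2 Pax5-/- samples, independently prepared from male C57BL/6 mice, and 1 wild-type sample from a female C57BL/6 mouse. All began as B220+ bone marrow cells (B220 being the CD45 isoform that marks the B lineage) grown on OP9, a stromal feeder line. A day 7 harvest and removal of IgM+ cells by magnetic depletion are stated for both Pax5-/- samples, and neither is stated for the wild type. No age of the mice, and no description of which Pax5 exons the allele lacks, was among the sources used here.

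The Na,K-ATPase uses ATP to move sodium out of the cell and potassium in. Its alpha subunit binds ATP and carries the ions, and its glycosylated beta subunit is needed to fold alpha and bring it to the cell surface, where beta also takes part in contact between cells. FXYD proteins are small membrane proteins that bind the pump and tune its kinetics. In lymphocytes the sodium gradient drives the uptake of amino acids and other nutrients, and the beta 3 subunit is known as the surface antigen CD298.

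The 3 libraries held 6487846 and 6697879 counts in Pax5-/-, against 6530057 for wild type. Pax5 itself had 417 and 551 counts in the mutant libraries, against 1601 for wild type (log2 difference -1.78, SE 0.19, adjusted p = 0.0107, edgeR quasi-likelihood test), a call that an assumed biological coefficient of variation of 0.4 ended. The counts are per gene, so they do not show which exons the remaining reads came from. All 7 pro-B markers looked at, among them Vpreb1, Igll1, Rag1 and Dntt, were detected in every library, and their summed level was 2344 and 2710 CPM (library-scaled counts, by TMM) in Pax5-/-, against 3227 CPM for wild type. The markers went both ways: Rag1, Il7r and Dntt were called higher in Pax5-/-, Vpreb1 and Cd79a lower, and Igll1 and Rag2 neither (edgeR). Cd79a, a signalling chain of the B-cell receptor, had 79.1 and 109 CPM in Pax5-/-, against 1002 CPM for wild type. Sex, the stated day 7 harvest and the stated IgM depletion cannot be told apart from genotype in these 3 samples.

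The start regions of Atp1b1, Atp1b3 and Fxyd5, the members that passed the filter on low counts, are shown because the genes lie on different chromosomes and stood on opposite sides in the comparison. Each is the 250 bases before a RefSeq start (GRCm38.p6, the assembly that mm10 names), on the minus strand and read 5′ to 3′ toward the gene. Atp1b1 lies at chr1:164458356-164458605, Atp1b3 at chr9:96364432-96364681 and Fxyd5 at chr7:31042332-31042581. Capitals mark matches, on either strand, to the GC box GGGCGG, the E box CANNTG and the CCAAT box CCAAT.
Atp1b1: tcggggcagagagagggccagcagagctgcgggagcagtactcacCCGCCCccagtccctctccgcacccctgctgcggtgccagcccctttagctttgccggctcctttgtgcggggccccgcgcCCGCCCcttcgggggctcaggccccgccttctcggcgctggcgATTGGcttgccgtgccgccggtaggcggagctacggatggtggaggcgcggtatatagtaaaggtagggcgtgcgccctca
Atp1b3: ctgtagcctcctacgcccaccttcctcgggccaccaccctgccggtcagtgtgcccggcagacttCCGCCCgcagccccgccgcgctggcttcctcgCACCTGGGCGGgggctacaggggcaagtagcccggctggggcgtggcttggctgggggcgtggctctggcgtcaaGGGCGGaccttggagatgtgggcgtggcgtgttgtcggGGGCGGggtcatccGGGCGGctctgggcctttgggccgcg
Fxyd5: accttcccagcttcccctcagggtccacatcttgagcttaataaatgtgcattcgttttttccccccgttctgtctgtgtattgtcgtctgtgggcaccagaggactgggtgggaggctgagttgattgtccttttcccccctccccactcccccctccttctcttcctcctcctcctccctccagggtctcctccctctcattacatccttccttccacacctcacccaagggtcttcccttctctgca
The Atp1b1 window held 2 GC boxes and 1 CCAAT box, and the Atp1b3 window held 5 GC boxes and 1 E box, whose last base is the first of a GC box. The Fxyd5 window matched none of these motifs. RefSeq gives Atp1b3 a second start, inside the gene, whose window (chr9:96363716-96363965, not printed) held 0 GC boxes, 1 E box and no CCAAT box, so the GC boxes of Atp1b3 belong to the outer start. Over all 32851 start windows of the same length, 32.7% held a GC box, 66.2% an E box and 33.8% a CCAAT box. The TATA box in the exact letters TATAAA, which 12.4% of windows held, was searched as well and matched none of these windows. Variants of it were not searched, such as the letters tatata near the end of the Atp1b1 window. The windows of Atp1b1 and Atp1b3 were rich in G and C, at 70.4% and 73.6% with 24 CpG each, against 55.6% and 3 CpG for Fxyd5, and the inner Atp1b3 window had 76.8% and 35 CpG. A match is a run of letters, and binding was not measured here.

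Atp1b1 was far lower and Atp1b3 higher in Pax5-/-, while the wild type held both. Atp1b1 encodes beta 1, the beta subunit of most epithelia (Entrez 11931; chromosome 1, 164437099 to 164458355). It had 65 and 86 counts in the Pax5-/- samples, against 4628 in the wild type. Its level was 10.0 and 12.6 CPM in Pax5-/-, against 721 CPM for wild type, so both Pax5-/- samples lay far below the lone wild-type value. The fitted log2 fold change was -5.99 (SE 0.18), a 63.6-fold lower level in Pax5-/-. In a bulk sample, fewer cells that express a gene and less RNA per cell cannot be told apart.

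Atp1b3 encodes beta 3, or CD298 (Entrez 11933; chromosome 9, 96332655 to 96364431). It had 6784 and 7181 counts in Pax5-/-, against 3300 counts for wild type. That was 1046 and 1054 CPM in the Pax5-/- samples, against 514 CPM in the wild type, with a log2 fold change of 1.03 (SE 0.10), or 2.04-fold higher. The 2 Pax5-/- values were close to each other and both above the wild type. Atp1b2, the beta 2 subunit known from glia as an adhesion molecule, was scarcely detected, with 3 and 2 counts against 5. It did not pass the filter on low counts, so 3 of the 4 members entered the fit over 11783 genes.

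**Figure D1:**
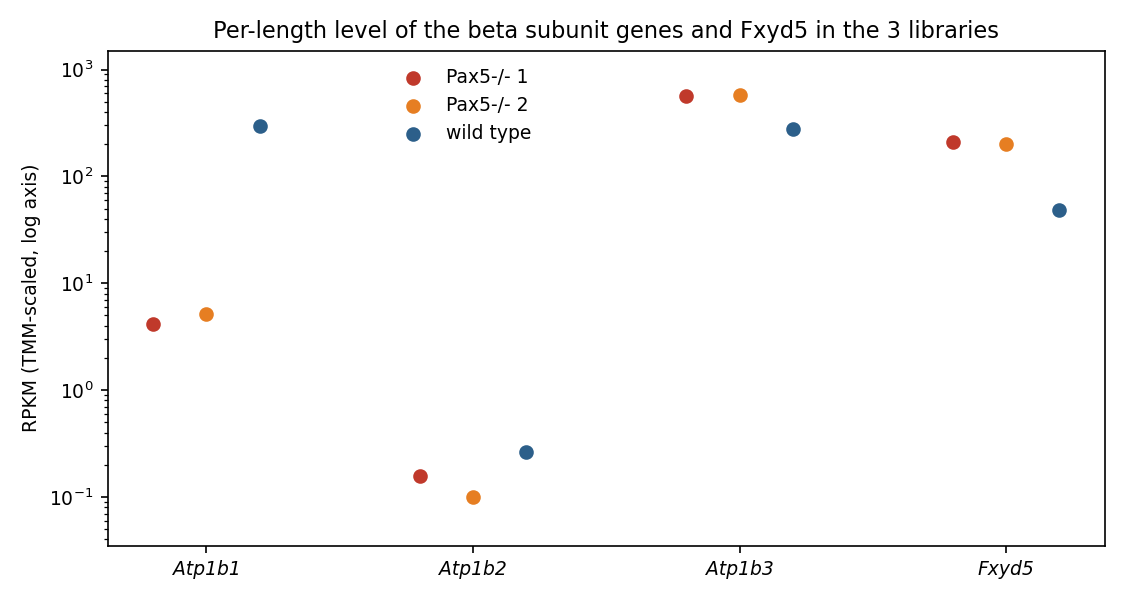
Level per gene length (RPKM, TMM-scaled, logarithmic vertical axis) of the 3 beta subunit genes and Fxyd5 in Pax5-/- samples 1 and 2 and in the wild type, 1 point a library. Atp1b1 stood at 4.14 and 5.21 RPKM in Pax5-/-, against 298 RPKM for wild type, while Atp1b3 and Fxyd5 were higher in both Pax5-/- samples.

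Levels of different genes were compared per gene length, as RPKM (TMM-scaled CPM divided by the deposited gene length in kilobases). Atp1b3 stood at 571 and 575 RPKM in Pax5-/-, against 280 RPKM for wild type. Atp1b1 stood at 4.14 and 5.21 RPKM in Pax5-/-, against 298 RPKM for wild type. The wild type thus held the 2 genes at nearly equal levels, with 1.06 times as much Atp1b1 as Atp1b3. In Pax5-/-, Atp1b3 exceeded Atp1b1 by 138 times in sample 1 and 110 times in sample 2.

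Per gene length, the sum of the 3 beta genes was nearly the same in every library, at 575 and 580 RPKM in Pax5-/-, against 578 RPKM for wild type. Without the division by length, the sum was higher in the wild type. Atp1b1 and Atp1b3 had 721 and 514 CPM there, against 10.0 and 1046 CPM in Pax5-/- sample 1 and 12.6 and 1054 CPM in sample 2. The make-up of the per-length sum differed. Atp1b1 made up 0.720% and 0.898% of that sum in the Pax5-/- samples, or 0.809% ± 0.126 (SD, n = 2), against 51.5% in the wild type. As a share of the raw beta counts, Atp1b1 held 0.949% (exact 95% binomial interval 0.733 to 1.21) and 1.18% (0.947 to 1.46) in Pax5-/- and 58.3% (57.2 to 59.4) in the wild type. These intervals cover counting error only. Atp1b3 made up 99.3% and 99.1% of the beta sum in Pax5-/- and 48.5% in the wild type, and Atp1b2 no more than 0.0455% in any library.

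**Figure D2:**
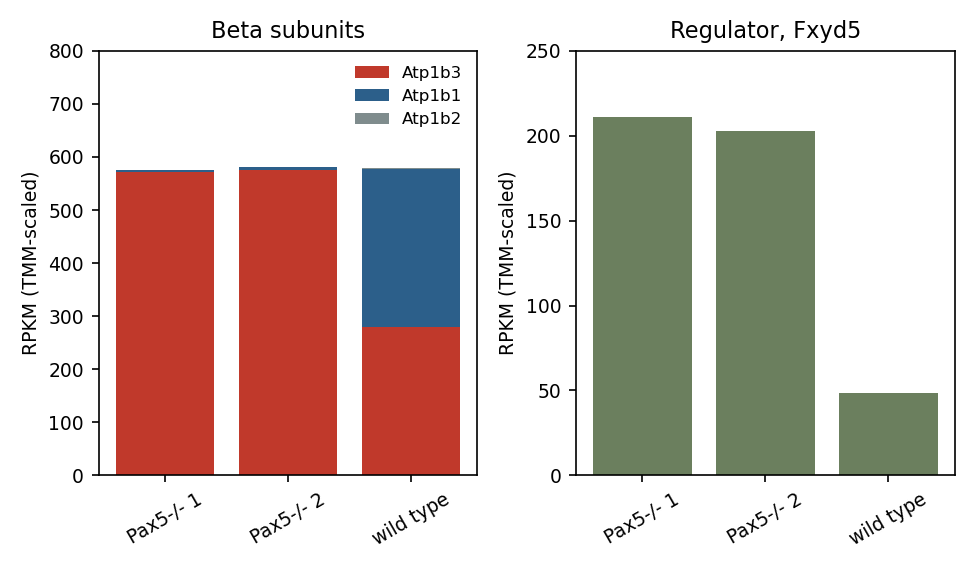
Stacked bars give the level per gene length (RPKM, TMM-scaled) of Atp1b3, Atp1b1 and Atp1b2 in each library (left), beside the level of Fxyd5 (right) on an axis of its own. The beta sums reach 575, 580 and 578 RPKM in Pax5-/- 1, Pax5-/- 2 and the wild type, with Atp1b1 visible as a large block in the wild type alone.

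Among all genes listed, Atp1b3 ranked 84th and 79th by RPKM in the Pax5-/- samples and 210th in the wild type. Atp1b1 ranked 8706th and 8251st in Pax5-/- and 195th in the wild type. The 2 beta genes were therefore far apart in rank in Pax5-/- and close in the wild type.

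Fxyd5, which encodes dysadherin, an FXYD protein that binds the pump and is known to weaken cell adhesion in epithelial cells (Entrez 18301; chromosome 7, 31032723 to 31042331), was also higher without Pax5. It had 1880 and 1907 counts in Pax5-/-, against 428 for wild type. That was 290 and 280 CPM in the mutant libraries, against 66.7 CPM for wild type, a log2 fold change of 2.09 (SE 0.14), or 4.27-fold higher. The Pax5-/- samples lay close together and well above the wild type. Per length, Fxyd5 stood at 0.366 and 0.350 times the beta sum in Pax5-/-, against 0.0837 times for wild type. The beta sums being nearly equal on that scale, this difference lay in Fxyd5. RNA levels do not give the amounts of protein.

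The order of the members by RPKM also differed. In Pax5-/- it ran Atp1b3 (573 ± 2.93), Fxyd5 (207 ± 5.17), Atp1b1 (4.67 ± 0.758) and Atp1b2 (0.128 ± 0.0404; SD, n = 2 each). In none of these neighbouring pairs did the values of the 2 samples overlap. In the wild type it ran Atp1b1 (298), Atp1b3 (280), Fxyd5 (48.4) and Atp1b2 (0.263), with no replicate to give a spread.

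Overlapping genes bear on the Atp1b1 counts. The 3′ end of Nme7, on the opposite strand, overlaps that of Atp1b1 by 202 bases in RefSeq. By BLAST, transcripts of Nme7 and Atp1b1 match over 384 bases at 100% identity. That is longer than the overlap of the gene coordinates, and why the lengths differ was not examined. The strand setting of the counting is not stated, so reads in a shared stretch of either length cannot be assigned to one gene. Nme7, named for this overlap, had 237 and 192 counts in Pax5-/-, against 560 for wild type (log2 difference -1.43, SE 0.20, adjusted p = 0.0204, edgeR quasi-likelihood test). Nme7 was thus lower in Pax5-/- as well, and how many of its counts came from Atp1b1 reads was not tested. The predicted gene Gm1848 matches Atp1b3 transcripts over 805 bases at 96.4% identity, and how reads that fit several places were counted is not stated. The noncoding Gm38984 overlaps Fxyd5 by 5489 bases, and Fxyd7 lies 183 bases from Fxyd5 and had 2 and 3 counts in Pax5-/-, against 0 for wild type.

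Markers of other cells were summed in each library. Of 5 neutrophil markers, 1 was detected in each Pax5-/- sample and 5 in the wild type, with sums of 1.70 and 3.81 CPM against 67.5 CPM. S100a8, S100a9, Ngp and Camp were at 0 in both Pax5-/- samples, and of the 4 tested, S100a8, S100a9 and Ngp were called lower and Ltf was not. Of 8 stromal markers for OP9, 7 were detected in each Pax5-/- sample and 8 in the wild type, with sums of 8.48 and 7.78 CPM against 20.6 CPM. None of the 5 stromal markers tested was called, and Pdgfrb had 15 and 18 counts in Pax5-/-, against 4 for wild type. Light-chain constant genes, 4 in all, summed to 8.63 and 4.99 CPM in Pax5-/-, against 784 CPM for wild type, the library with no stated IgM depletion, and all 4 were called lower. Igkc alone had 54 and 30 counts in Pax5-/-, against 3927 for wild type. The name pro-B comes from the sample titles, and whether all wild-type cells were at that stage was not tested. The part of neutrophils, stroma and cells with light-chain RNA in the level of Atp1b1 was not tested.

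Markers of macrophages, erythroid cells and T cells were low. The 5 macrophage markers summed to 12.3 and 12.3 CPM in Pax5-/-, against 3.58 CPM for wild type, with C1qa and C1qb at 0 in all 3 libraries. Nearly all of the sum in Pax5-/- was Mrc1, at 10.9 and 11.7 CPM against 0.156 CPM, while Csf1r had 8 and 4 counts in Pax5-/-, against 22 for wild type. Of the 2 macrophage markers tested, Mrc1 was called higher in Pax5-/- (adjusted p = 0.00842, edgeR quasi-likelihood test) and Csf1r was not called. The 3 erythroid markers summed to 0.925 and 1.03 CPM in Pax5-/-, against 1.25 CPM for wild type, and Slc4a1 was at 0 throughout. The 5 T-cell markers summed to 0.771 and 0.587 CPM in Pax5-/-, against 1.71 CPM for wild type. The part of these cells in the levels of Atp1b3 and Fxyd5 was not tested.

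Genes that share a function with the pump were examined in 7 lists of 62 genes outside the members, in the same fit over all genes. Of these, 45 passed the count filter, 9 (20%) rose in Pax5-/-, 11 (24.4%) fell and 25 were not called (adjusted p under 0.05 by Benjamini-Hochberg in edgeR). Over all 11783 genes tested, 9.53% rose, 8.55% fell and 18.1% were called in either direction. The lists were chosen with earlier results of these data known, so the difference between these shares is no test of the lists. The median log2 fold change was -0.10 over the 45 genes and 0.01 over all genes. The spread in these tests came from the 2 Pax5-/- samples alone, with the same variability assumed for the single wild type.

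**Figure D3:**
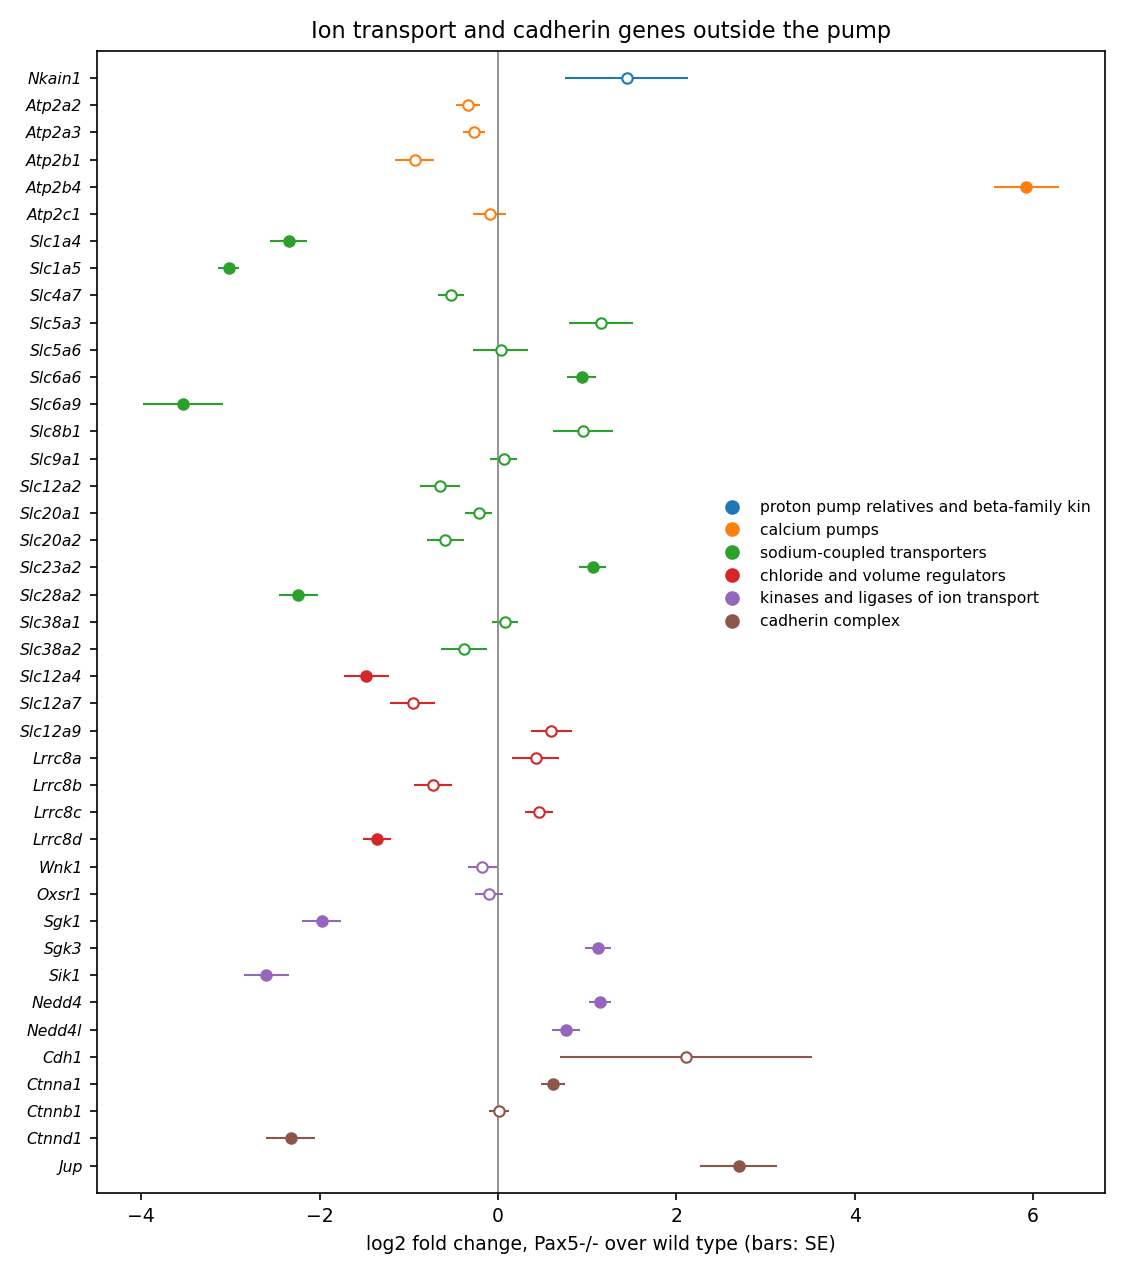
Fitted log2 fold change (Pax5-/- over wild type, horizontal axis) with its SE for 41 genes of ion transport and the cadherin complex, coloured by list; filled points were called and open points were not. The 4 tested genes with 3 or fewer counts in a genotype are left out; Atp2b4 lies farthest to the right at 5.92 and Slc6a9 farthest to the left at -3.53.

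Other FXYD genes were scarce. Of 6, 2 were tested, and 1 fell. Fxyd6, an FXYD protein known from brain, had 1 and 2 counts in Pax5-/-, against 29 for wild type, a ratio of 20 of wild type over Pax5-/- (exact 95% interval for counting error 6.21 to 103; adjusted p = 0.0254, edgeR). Fxyd2, the gamma subunit of kidney pumps, had 11 and 9 counts in Pax5-/-, against 0 for wild type, and was not called (adjusted p = 0.0653, edgeR). With the wild type set to 3 counts, its level was 3.22-fold higher in Pax5-/-, a ratio that leaves out counting error in the Pax5-/- counts. Fxyd1 had 1 and 2 counts against 0, Fxyd4 1 and 1 against 0, and Fxyd3 none in any library. The call of Fxyd6 was lost with DESeq2, and Fxyd2 passed with limma-voom, the likelihood ratio test and an assumed coefficient of variation of 0.4.

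The relatives of the pump were nearly silent. Of 8 genes for gastric and colonic proton pumps, the beta-like Atp1b4 and the beta-binding Nkain proteins, 1 was tested and 5 had no counts in any library. Nkain1 had 11 and 12 counts in Pax5-/-, against 4 for wild type and was not called (log2 fold change 1.44, SE 0.69, adjusted p = 0.221, edgeR). Atp4a, the alpha subunit of the gastric proton pump, had 6 and 4 counts against 8, and its beta partner Atp4b had none. Nkain2 had 0 and 0 counts against 1.

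Of 9 calcium pump genes, 5 were tested and 1 rose. Atp2b4, a plasma membrane calcium pump, had 2647 and 4070 counts in Pax5-/-, against 53 for wild type, or 408 and 597 CPM against 8.26 CPM (log2 fold change 5.92, SE 0.37, adjusted p = 0.00446, edgeR). Both Pax5-/- samples lay far above the wild type. Its relative Atp2b1 had 38.4 and 50.8 CPM in Pax5-/-, against 85.2 CPM for wild type and was not called (log2 fold change -0.93, SE 0.22, adjusted p = 0.0568). The pumps of the endoplasmic reticulum were not called, with Atp2a2 at -0.34 (SE 0.13) and Atp2a3 at -0.27 (SE 0.12) on the log2 scale, nor was the Golgi pump Atp2c1, at -0.09 (SE 0.19). Atp2b1 passed the threshold with RLE scaling, with no filter, with DESeq2, in the likelihood ratio test and with robust dispersion estimation.

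Genes of sodium-coupled transport moved both ways. All 17 were tested, 3 rose, 4 fell and 10 were not called, with a median log2 fold change of -0.21. Slc1a5, an exchanger that brings glutamine into lymphocytes, had 511 and 514 counts in Pax5-/-, against 4013 for wild type, or 78.8 and 75.4 CPM against 625 CPM. The gene fell by 3.02 in log2 units (SE 0.11, adjusted p = 0.00272, edgeR), an 8.11-fold lower level. Its relative Slc1a4 fell by 2.35 (SE 0.20), the glycine transporter Slc6a9 by 3.53 (SE 0.45) and the nucleoside transporter Slc28a2 by 2.24 (SE 0.22).

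The 3 that rose were Slc8a1, Slc23a2 and Slc6a6. Slc8a1, the sodium-calcium exchanger of the plasma membrane, had 59 and 49 counts in Pax5-/-, against 2 for wild type, a CPM ratio of 26.1 (exact 95% interval for counting error 7.04 to 218). Slc23a2, a vitamin C transporter, rose by 1.06 in log2 units (SE 0.15) and the taurine transporter Slc6a6 by 0.94 (SE 0.17). The genes of the list with the highest mean CPM were not called: Slc38a1, a neutral amino acid transporter, stood at 447 and 528 CPM against 462 CPM and Slc38a2 at 339 and 501 CPM against 548 CPM. Slc4a7, a bicarbonate carrier, had a log2 fold change of -0.53 (SE 0.15) and the phosphate carrier Slc20a1 of -0.21 (SE 0.15), and neither was called. The call of Slc6a6 was lost in the likelihood ratio test, and those of Slc6a6 and Slc23a2 when a coefficient of variation of 0.4 was assumed.

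Of 8 genes of chloride transport and cell volume, 7 were tested, 2 fell and 5 were not called, with a median log2 fold change of -0.73. The potassium-chloride cotransporter Slc12a4 fell by 1.48 in log2 units (SE 0.25) and Lrrc8d, a subunit of the volume-regulated anion channel, by 1.35 (SE 0.16). Slc12a4 stood at 6.32 and 5.87 CPM in Pax5-/-, against 17.0 CPM for wild type (adjusted p = 0.0299, edgeR). Slc12a7, of the same family as Slc12a4, at -0.96 (SE 0.26, adjusted p = 0.0776), was not called, nor were Lrrc8a (0.42, SE 0.26), Lrrc8b (-0.73, SE 0.22) and Lrrc8c (0.46, SE 0.15). An assumed coefficient of variation of 0.4 ended both calls and DESeq2 that of Slc12a4, while Slc12a7 passed with RLE scaling and in the likelihood ratio test.

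Among 8 kinases and ubiquitin ligases that regulate ion transport, all tested, 3 rose, 3 fell and 2 were not called. Nedd4, a ubiquitin ligase of membrane proteins, had 4632 and 5414 counts in Pax5-/-, against 2190 for wild type (log2 difference 1.14, SE 0.13, adjusted p = 0.0118, edgeR). Its relative Nedd4l, which acts on epithelial sodium channels, rose by 0.76 (SE 0.15) and the kinase Sgk3 by 1.12 (SE 0.14). Sgk1, a kinase known to raise sodium transport in kidney, fell by 1.98 in log2 units (SE 0.22), with 8.48 and 10.6 CPM in Pax5-/- against 37.5 CPM, and Sik1, a salt-inducible kinase, by 2.60 (SE 0.25). Stk39, the kinase SPAK that acts on chloride cotransporters, had 2 and 0 counts in Pax5-/-, against 30 for wild type, a ratio of 31.1 of wild type over Pax5-/- (exact 95% interval for counting error 7.89 to 268), whereas its relative Oxsr1 (-0.10, SE 0.16) and its activator Wnk1 (-0.18, SE 0.16) were not called. The call of Stk39 was lost with library-size scaling and DESeq2, that of Nedd4l with DESeq2 and the likelihood ratio test, and those of Nedd4, Nedd4l and Sgk3 with an assumed coefficient of variation of 0.4.

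The cadherin complex was included because dysadherin is named for its effect on E-cadherin. Of 6 genes, 5 were tested, 2 rose, 1 fell and 2 were not called. Cdh1, which encodes E-cadherin, had 5 and 32 counts in Pax5-/-, against 4 for wild type (log2 difference 2.11, SE 1.41, adjusted p = 0.354, edgeR), so 1 Pax5-/- sample stood apart from the other. Jup, which encodes plakoglobin, had 151 and 256 counts in Pax5-/-, against 30 for wild type and rose by 2.70 (SE 0.43). Ctnna1, alpha-catenin, rose by 0.62 (SE 0.13, adjusted p = 0.05), Ctnnd1, the p120 catenin, fell by 2.32 in log2 units (SE 0.27), and Ctnnb1, beta-catenin, was not called at 0.01 (SE 0.11). Cdh2 had 2 and 4 counts against 0. The call of Jup was lost with limma-voom and that of Ctnna1 with library-size scaling, the likelihood ratio test and an assumed coefficient of variation of 0.4.

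**Figure D4:**
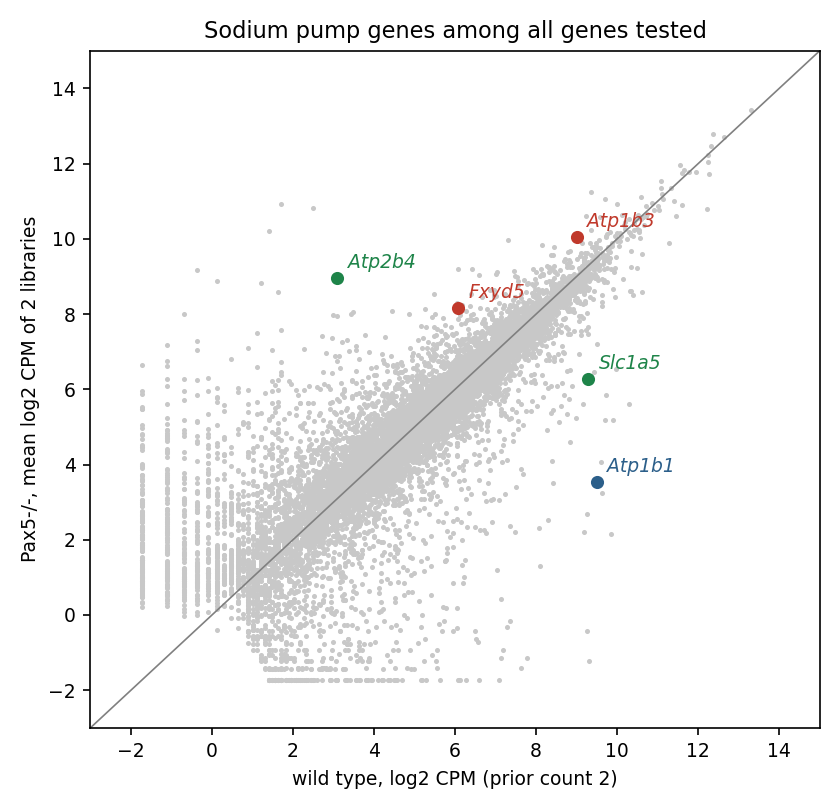
Mean log2 CPM of the 2 Pax5-/- libraries (vertical axis) against log2 CPM of the wild type (horizontal axis), both with a prior count of 2, for the 11783 genes tested; the line marks equal levels. Atp1b1 lies far below the line and Atp1b3 and Fxyd5 above it, with the calcium pump Atp2b4 and the transporter Slc1a5 shown for comparison.

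The genes most like the 2 main beta genes in their pattern over the 3 samples were found by the Euclidean distance between log2 CPM profiles (prior count 2), each centred on its own mean, among 10884 tested genes. Closest to Atp1b1 were H2-Ab1, an MHC class II chain (distance 0.145), Bcat1, a branched-chain amino acid transaminase (0.226), and Ret, a receptor tyrosine kinase (0.231). H2-Ab1 had 5 and 6 counts in Pax5-/-, against 426 for wild type. Bcat1 had 34 and 39 counts against 1996 and Ret had 0 and 0 against 117. The distances of Ret and of H2-Ab1 therefore depend on the prior count. The fitted log2 fold changes were -6.29 for H2-Ab1 and -5.82 for Bcat1, against -5.99 for Atp1b1, so Bcat1 was nearer by that measure. Closest to Atp1b3 were Agtrap, an angiotensin receptor partner (0.0111), Cplane2 (0.0263) and Ankrd24 (0.0271). Agtrap had 438 and 463 counts in Pax5-/-, against 214 for wild type, while Cplane2 had 16 and 17 against 7 and Ankrd24 24 and 26 against 11. With 3 samples, many genes share such a pattern.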

How the data were processed

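RNA was sequenced from 3 samples, and their titles give the genotype: Pax5-/- in 2 and wild type in 1. The deposited values are raw counts per gene, made by the authors with featureCounts on mm10 according to the submitters' processing notes. Not given in the sources used here are its version, the aligner, the annotation, the strand setting and the treatment of multi-mapped reads. A gene length stands beside each count, per the file headers, and served here for RPKM. For each library, the series-wide table matched the sample's own file in all 27179 genes. Symbols and coordinates came from RefSeq GRCm38.p6 by Entrez number (25275 numbers, 93.0%, matched), as did the start windows, found for 3 of the 4 members.

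Counts were filtered by filterByExpr (minimum count 10), scaled by TMM (factors 0.9997 and 1.018 in Pax5-/- and 0.983 in the wild type) and fitted with edgeR 4.0.16 in R 4.3.3 (glmQLFit, glmQLFTest, Benjamini-Hochberg, threshold 0.05). With 1 residual degree of freedom (prior degrees of freedom 3.15), the biological coefficient of variation was 0.203. Fold changes (log2) have Pax5-/- on top, and the SE is the coefficient over the square root of F. CPM use library totals times TMM factors. Alternatives used limma 3.58.1 and DESeq2 1.42.0, and similar transcripts were sought with BLAST 2.17.0 (at least 100 bases at 90% identity). The members and lists were chosen with earlier results of these data known, and some genes they first held are not reported here. The text names every member, every called gene of each list and up to 4 of its most abundant uncalled genes, Pax5, and the 3 genes nearest to Atp1b1 and to Atp1b3; Nme7, Gm1848, Gm38984 and the marker genes were named outside this rule.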

Additional observations from a re-analysis of the deposited data

How the results depend on the processing

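Of the alternatives, 1 changed the counts of calls by more than 1.5 times. With a biological coefficient of variation of 0.4 assumed for every gene, 1206 genes were called (623 higher and 583 lower in Pax5-/-), against 2130 (1123 and 1007), and 13 genes of the pathway lists (4 higher and 9 lower), against 20 (9 and 11). RLE or library-size scaling, no filter or a minimum count of 20, DESeq2, limma-voom, the likelihood ratio test and robust dispersion estimation gave 1851 to 2611 calls, and 17 to 22 in the lists. The share of Atp1b1 among beta transcripts was 1.07% in Pax5-/- and 58.3% in the wild type by raw counts, against 0.809% and 51.5% per length, since Atp1b1 is the longer gene (2422 bases, against 1833 for Atp1b3). With either Pax5-/- sample left out, the share was 0.720% to 0.898%, and the log2 fold change was -6.13 to -5.80 for Atp1b1, 1.02 to 1.03 for Atp1b3 and 2.06 to 2.12 for Fxyd5, each a difference in log2 CPM (prior count 2) from 1 wild type, with no test. The direction of Atp1b1, Atp1b3 and Fxyd5 held under RLE and library-size scaling, no filter, a minimum count of 20, DESeq2, limma-voom and with either Pax5-/- sample left out. That of the named pathway genes that passed the count filter held under each alternative fitted to all 3 samples that gave them a value, and the median of all genes moved to 0.04 at most, with library size alone. No paired analysis was made, since no label pairs a Pax5-/- sample with the wild type. Leaving out the wild type, or testing with 1 sample a group, could not be done.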
